A study of Mus musculus with 4 samples.

Results

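The iron and heme handling genes of the kidney were followed through single-cell RNA libraries of mouse kidney after ischaemia-reperfusion injury: Cd163, Hp, Hmox1, Blvrb, Slc40a1, Fth1, Ftl1, Slc11a1, Trf and Tfrc. They were chosen by name, as 10 of the 31053 genes counted, and all 10 stood in the gene list of every library. Kidneys came from male C57BL/6 mice, and each of 4 libraries stood for 1 group. The groups were kidneys taken 5 days after injury, 5 days after injury in mice dosed by mouth with L. casei Zhang (Lac.z) beforehand, and 14 or 28 days after injury without Lac.z. Lac.z is a probiotic bacterium, given at 1e+09 colony-forming units a day for 4 weeks before the injury. The labels state neither what the other mice were gavaged with nor their age nor the number of animals behind a library, and no uninjured kidney was analysed here. With 1 library per group there was no test between groups: every interval below is a 95% interval for counting error only, and a difference between libraries may be a difference between animals, dissections or runs. Each of the 3 comparisons has the same base, the day 5 library of mice that had no Lac.z.

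Iron that is taken up by a cell is either used, stored in ferritin, a shell of heavy (Fth1) and light (Ftl1) chains, or exported through ferroportin (Slc40a1), the only known iron exporter of mammalian cells. Transferrin (Trf) carries iron in plasma to the transferrin receptor (Tfrc), and Slc11a1 (Nramp1) moves metal ions out of the phagosome of phagocytes. Haemoglobin released from red cells is bound by haptoglobin (Hp) and taken up by the macrophage receptor Cd163. Heme oxygenase (Hmox1) opens the heme ring and frees its iron, and biliverdin reductase B (Blvrb) is a reductase of flavins and of biliverdin. In the kidney, macrophages clear debris after injury, and the proximal tubule reabsorbs filtered iron carriers.

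Fth1, Ftl1, Slc40a1 and Tfrc carry an iron-responsive element, an RNA hairpin bound by the iron regulatory proteins Irp1 and Irp2 when a cell is short of iron. In a 5′ untranslated region the bound hairpin holds back translation, and in the 3′ untranslated region of Tfrc it protects the message from decay. The elements are shown because they mark the members whose protein can change without the transcript counts, and the member whose transcript is a target itself. They were searched on the sense strand of annotated transcripts as a C, 5 bases, the loop CAGTGN, and 5 bases that pair with the first 5 by A-T, G-C or G-T. Capitals mark the loop, and all coordinates are of the mouse build GRCm38 with the GENCODE annotation. The element of Fth1 lies at chr19:9982732-9982760 on the plus strand, that of Ftl1 at chr7:45459779-45459807 on the minus strand, and that of Slc40a1 at chr1:45925465-45925493 on the minus strand, all in 5′ untranslated exon sequence. The 4 matches in Tfrc lie in its 3′ untranslated exon on the plus strand, at chr16:32631219-32631247, chr16:32631598-32631626, chr16:32631663-32631691 and chr16:32631710-32631738. An element that departs from the searched pattern would not be listed, so the matches may not be all the elements of a gene.
Fth1, 5′: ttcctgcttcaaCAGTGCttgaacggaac
Ftl1, 5′: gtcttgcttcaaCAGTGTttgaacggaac
Slc40a1, 5′: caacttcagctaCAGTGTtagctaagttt
Tfrc, 3′, first: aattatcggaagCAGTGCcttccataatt
Tfrc, 3′, next: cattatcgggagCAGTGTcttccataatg
Tfrc, 3′, next: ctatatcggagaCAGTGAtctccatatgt
Tfrc, 3′, last: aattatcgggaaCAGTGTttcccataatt

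A match to this pattern was present in the 5′ untranslated region of 28 of 20831 genes (0.134%) and in the 3′ region of 127 of 21589 (0.588%). Of the 10 members, 3 had it in the 5′ region and Tfrc alone had it in the 3′ region. A match is a description of sequence and was not tested for function here.

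The libraries held 8168 to 15583 cell barcodes and 76678882 to 104454319 UMIs (unique molecular identifiers, each counting 1 captured transcript), and 15 to 43 barcodes were shared by any pair of libraries. Cells were clustered with the members left out of the genes used, and clusters were named from marker lists. Levels are UMIs of a gene per 1000000 UMIs summed over the cells of a class in 1 library (CPM), for classes of at least 50 cells. The share of macrophage-like cells was 47.7% at day 5, 9.59% in the library of treated mice, 8.16% at day 14 and 3.22% at day 28, and proximal tubule-like cells 19.7%, 53.8%, 58.8% and 76.2%. The class of macrophage-like cells held cluster 5, named repair and led by Arg1, Gpnmb, Fabp5, Fn1 and Trem2, the cycling cluster 21, and cluster 0, led by H2-Eb1, Cd74, Cx3cr1 and Cd72 and given no state name. Cluster 22, led by the interferon-induced genes Isg15, Ifit2, Ifit3 and Irf7 together with Ms4a4c, carried all 10 macrophage markers but stayed unnamed, and it held 903 cells with Lac.z against 26 to 110 in the other libraries. Of the macrophage-like class and cluster 22 together, it made up 58.9% with Lac.z, against 3.38% at day 5, 4.69% at day 14 and 6.12% at day 28. The macrophage-like shares above and the class values below leave it out unless stated. Clusters 0 and 5 held 47.7% and 47.9% of the macrophage-like class at day 5, 47.4% and 36.8% with Lac.z, 88.2% and 10.8% at day 14, and 95.5% and 3.51% at day 28. Because of that shift, macrophage values are given for the class and, for most members, for single clusters. Proximal tubule-like cells showed all 11 of their markers in every library, and clusters 2, 6 and 16 were named S1-like, cluster 1 S2-like and cluster 26 S3-like, after the successive segments of the proximal tubule. Cluster 16 was led by the interferon-induced genes Ifit1, Ifit3 and Iigp1. It held 227 cells with Lac.z, against 7 at day 5, 12 at day 14 and 56 at day 28. S3-like cells are cluster 26 alone. Cluster 11 also scored best on the S3 markers (1.30, against 1.16 for S2) but was given no segment name.

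**Figure D1:**
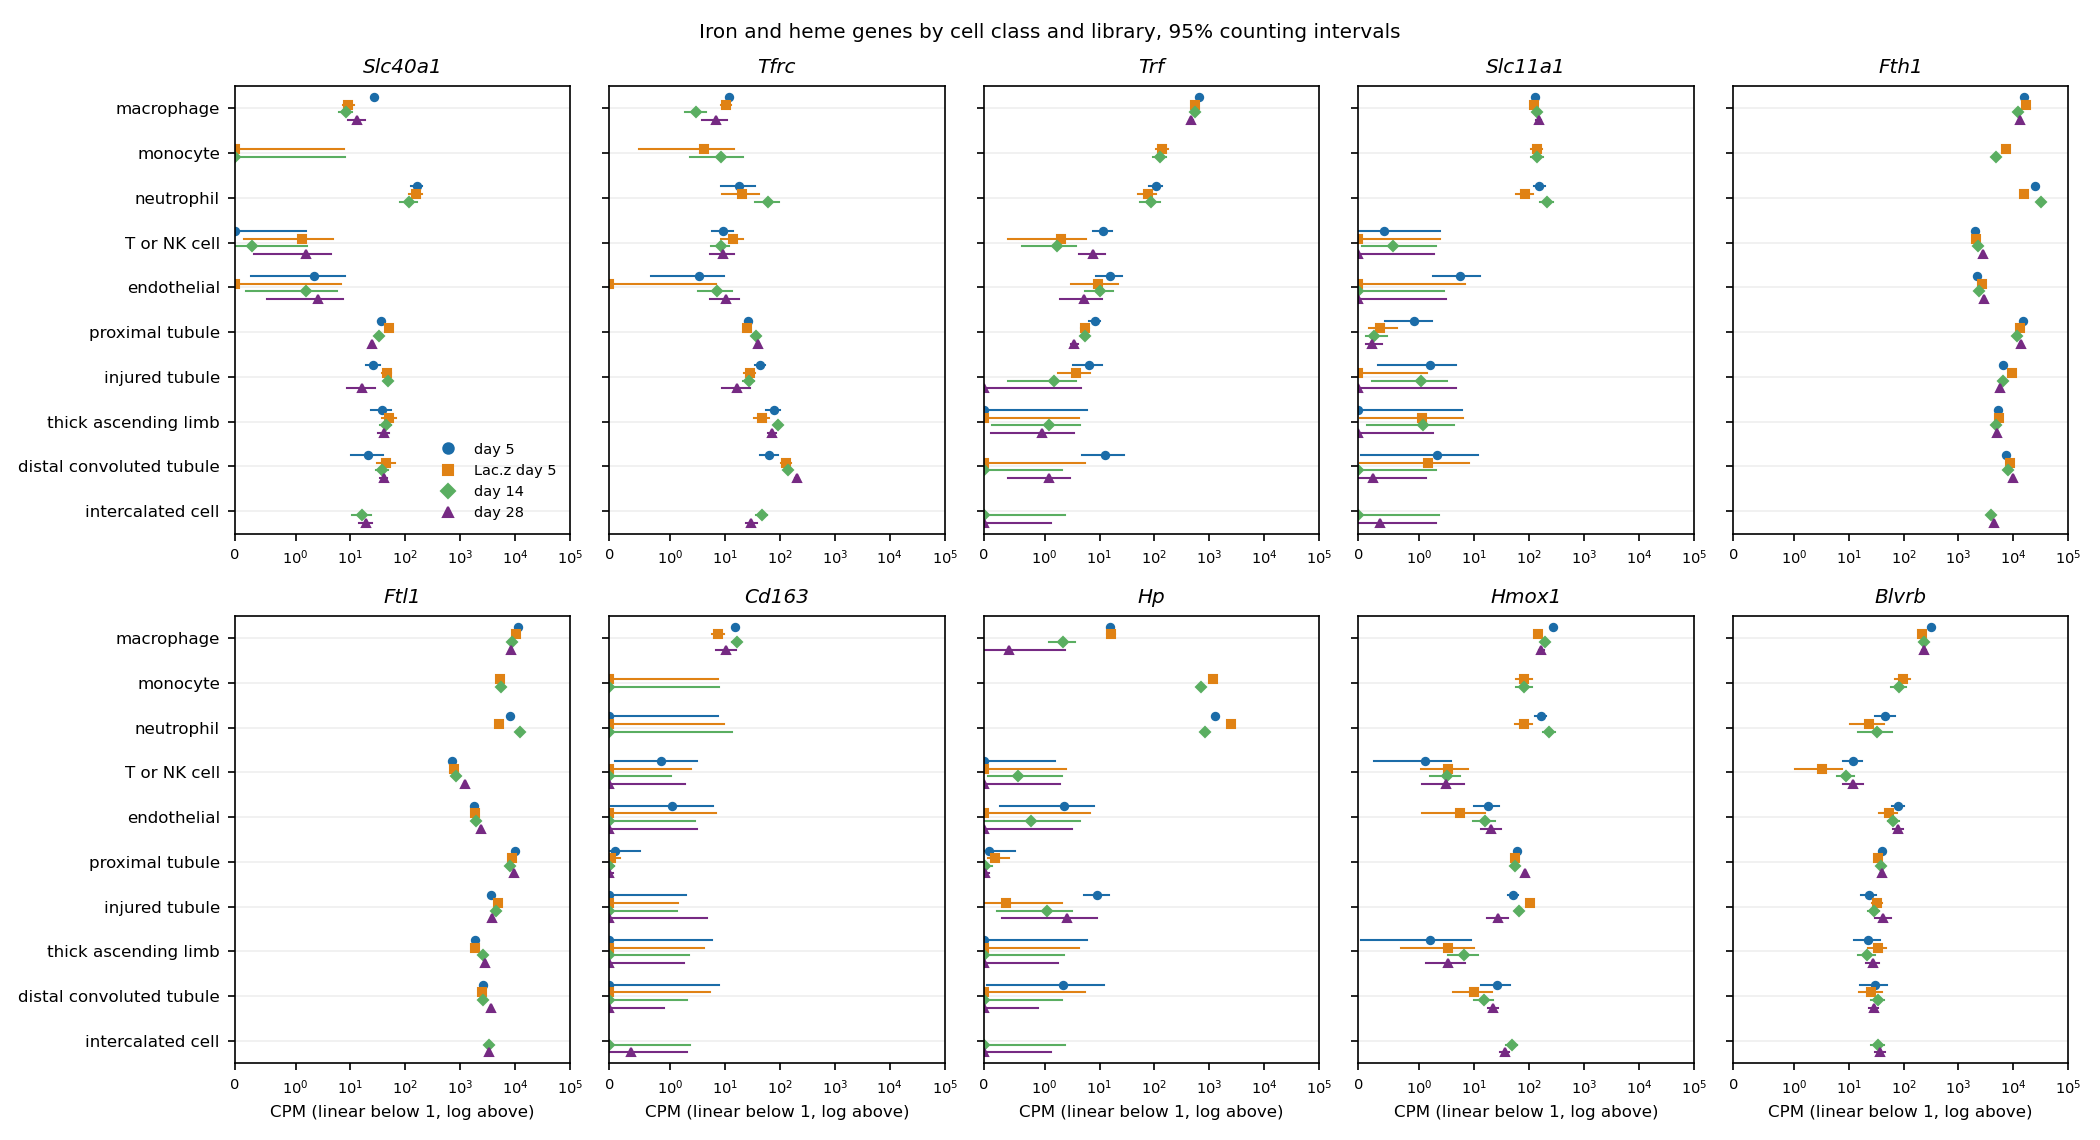
Levels of the 10 members (x axis, CPM, linear below 1 and logarithmic above) in 10 cell classes (y axis), one marker per library, with bars for the 95% counting interval. Cd163 was seen mainly in macrophages, Hp in neutrophils and monocytes, Tfrc was highest in the distal convoluted tubule except at day 5, and Fth1 and Ftl1 were high in phagocytes and proximal tubule.

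Cd163, the scavenger receptor for haemoglobin bound to haptoglobin, was counted mainly in macrophages. The gene (ENSMUSG00000008845) lies at chr6:124304636-124330529 (RefSeq annotation of GRCm38.p6, as for the genes that follow). Its level in macrophage-like cells was 15.2 CPM at day 5 (interval 14.1 to 16.4), 7.59 with Lac.z (5.87 to 9.65), 16.2 at day 14 (13.4 to 19.5) and 10.6 at day 28 (6.83 to 15.6). The Lac.z library was the lowest, and its interval overlapped that of day 28. T or NK cell-like cells, which should lack the receptor, had 2 Cd163 UMIs in 443 cells at day 5 and 0 in the other 3 libraries, and proximal tubule-like cells had 1, 1, 0 and 0. Outside macrophages the highest level was 8.59 CPM, in 52 fibroblast or mural-like cells at day 28, on 3 UMIs.

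Few macrophages carried the Cd163 transcript, so single cells weighed heavily. The receptor had a UMI in 6.04% of macrophage-like cells at day 5, 1.74% with the probiotic, 5.63% at day 14 and 3.26% at day 28, against 0.451%, 0%, 0% and 0% of T or NK cell-like cells. The median depth of these cells was 12161, 12632, 9164 and 5336 UMIs in macrophages and 4607, 4542.5, 4455.5 and 3232 in T or NK cell-like cells. Thinned to 2000 UMIs per cell, the macrophage shares were 2.12%, 0.963%, 2.54% and 1.79%. With Lac.z the 66 UMIs came from 11 cells, and a single cell gave 42.4% of them.

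The order of the repair cluster and cluster 0 in Cd163 changed between day 5 and day 14. At day 5 the level was 20.3 CPM in cluster 5 (18.5 to 22.1) and 5.71 in cluster 0 (4.55 to 7.08). At day 14 it was 11.2 in cluster 5 (5.98 to 19.2) and 17.5 in cluster 0 (14.3 to 21.3), with overlapping intervals. In cluster 0 the level was 3.07 with Lac.z, where all 8 UMIs came from 1 cell, and 11.6 at day 28 (7.52 to 17.1). Cluster 0 therefore held more Cd163 at days 14 and 28 than at day 5, while the intervals of the whole class overlapped those of day 5.

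Hp, haptoglobin, was a neutrophil and monocyte transcript in these kidneys. The gene (ENSMUSG00000031722) lies at chr8:109575128-109579172. Neutrophil-like cells held 1265 CPM at day 5 (1168 to 1368), 2440 with Lac.z (2286 to 2601) and 831 at day 14 (727 to 945). Monocyte-like cells held 1169 with Lac.z (1074 to 1269) and 691 at day 14 (618 to 770). In both classes the Lac.z library was the highest, and its intervals did not overlap those of the other libraries.

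Macrophages held far less Hp, and the repair cluster gave 608 of their 660 UMIs at day 5, 137 of 140 with Lac.z and 15 of 15 at day 14. The macrophage-like level was 15.5 CPM at day 5, 16.1 with the probiotic, 2.13 at day 14 and 0.422 at day 28, where it rested on 1 UMI. Cluster 5 held 24.1 at day 5 (22.2 to 26.1), 31.4 with Lac.z (26.4 to 37.1) and 12.96 at day 14 (7.25 to 21.4), while cluster 0 held 0.550 and 0.383 in the first pair and no UMI at day 14. Cycling cluster 21 held 15.1 at day 5 on 44 UMIs and 1.16 with Lac.z on 2, and cluster 22 held 3.62 on 5 UMIs and 7.48 on 79. In cluster 5 at day 5, 7 of 8 neutrophil markers were detected at 43.0 CPM in sum, with Ly6g at 0, against 72495 CPM in neutrophil-like cells. All 8 monocyte markers were detected there at 461 CPM. Their part in the Hp level was not tested.

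Hmox1, the enzyme that opens heme, was highest in day 5 repair macrophages among the macrophage clusters. The gene (ENSMUSG00000005413) lies at chr8:75093618-75100593. In macrophage-like cells the level was 272 CPM at day 5 (267 to 277), 144 with Lac.z (136 to 152), 197 at day 14 (186 to 207) and 168 at day 28 (151 to 185). Day 5 stood above the 3 other libraries, with no overlap of intervals. T or NK cell-like cells held 1.28 to 3.29 CPM.

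Among the clusters, the repair cluster had the widest spread of Hmox1 between libraries. Cluster 5 held 358 CPM at day 5 (350 to 365), 150 with Lac.z (139 to 162) and 150 at day 14 (129 to 174). Cluster 0 went another way, with 142 at day 5 (136 to 148), 120 with Lac.z (107 to 134), 210 at day 14 (198 to 222) and 176 at day 28 (159 to 195). Cluster 22 held 221 at day 5 (197 to 247) and 152 with Lac.z (145 to 160), and cycling cluster 21 held 181 and 164. At day 5 cluster 5 was 2.53 times cluster 0, and at day 14 it was 0.718 times cluster 0.

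Along the tubule Hmox1 was higher in S1-like and S2-like cells than in S3-like cells. S1-like cells held 64.4 CPM at day 5, 67.4 with the probiotic, 82.5 at day 14 and 91.1 at day 28. S2-like cells held 54.5 (46.0 to 64.2), 51.8, 63.0 and 127 (122 to 133), so that day 28 stood apart from the other 3 libraries. S3-like cells held 11.2 with the probiotic, 21.8 at day 14 and 34.7 at day 28, and thick ascending limb-like cells 1.60 to 6.58 in the 4 libraries, on 1 to 11 UMIs and near the T or NK cell-like level. Distal convoluted tubule-like cells held 10.1 to 25.6, which was 2.26 to 15.9 times the thick ascending limb and 2.32 to 5.43 times lower than the proximal tubule. S3-like cells were 2.63 to 6.01 times lower than S1-like cells in the 3 libraries that held at least 50 of them. The size of that difference depended on the S1-like cluster. Against cluster 6 alone, S3-like cells were 1.22 to 4.60 times lower, past 1.5-fold in 2 of the 3 libraries. Injured tubule-like cells, named from Havcr1 and other injury markers, held 51.4 at day 5 (41.6 to 62.7), 106 with Lac.z (93.7 to 119), 64.3 at day 14 and 27.6 at day 28. They are cluster 18 alone. Cluster 10, led by Fgg, C3, Fgb and Havcr1, held more cells in each library but stayed unnamed and is not part of this class. Its Hmox1 level was 0.596 to 1.17 times that of proximal tubule-like cells, against 0.330 to 1.93 times in injured tubule-like cells.

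Blvrb, the reductase of flavins and of biliverdin, was higher in macrophages than in proximal tubule in every library. The gene (ENSMUSG00000040466) lies at chr7:27447978-27465981. Macrophage-like cells held 315 CPM at day 5 (310 to 320), 218 with Lac.z (209 to 228), 234 at day 14 (222 to 245) and 234 at day 28 (215 to 255). Proximal tubule-like cells held 40.8, 34.5, 38.9 and 40.9, with Lac.z lowest and the other 3 overlapping. The macrophage level was 5.72 to 7.72 times the proximal tubule level. Within macrophages the day 5 library was the highest in clusters 0, 5, 21 and 22 alike, and its ratio to the Lac.z library stayed under 1.5 in each.

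Slc40a1, ferroportin, was lower in macrophages of every other library than in those of day 5. The gene (ENSMUSG00000025993) lies at chr1:45908070-45926532. The macrophage-like level was 27.3 CPM at day 5 (25.8 to 28.9), 9.20 with Lac.z (7.29 to 11.4), 8.24 at day 14 (6.26 to 10.6) and 13.1 at day 28 (8.89 to 18.6). The day 5 interval overlapped none of the others, and the other 3 overlapped each other. Ferroportin had a UMI in 10.6%, 6.5%, 4.36% and 3.51% of the cells, and in 0%, 0.357%, 0.144% and 0.535% of T or NK cell-like cells at the depths given above. After thinning to 2000 UMIs the macrophage shares were 3.21%, 1.77%, 1.13% and 1.53%.

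Ferroportin was also lower than at day 5 within single macrophage clusters. Cluster 0 held 17.5 CPM at day 5 (15.5 to 19.8), 2.68 with Lac.z (1.08 to 5.53), 8.68 at day 14 (6.44 to 11.4) and 10.7 at day 28 (6.77 to 16.0). Cluster 5 held 35.1 at day 5 (32.8 to 37.5), 15.4 with Lac.z (11.9 to 19.5) and 5.18 at day 14 (1.90 to 11.3). Cluster 22 held 34.0 at day 5 (25.0 to 45.2) and 14.9 with Lac.z (12.6 to 17.4), but 1 cell gave 46.8% of the day 5 UMIs there. The day 5 library was the highest in these 3 clusters, and also in cycling cluster 21, where the intervals of 8.93 (5.83 to 13.1) and 3.47 with Lac.z (1.27 to 7.55) overlapped. In cluster 0 the summed erythroid markers were 102 CPM at day 5, 43.3 with the probiotic, 9.90 at day 14 and 16.3 at day 28, from 5, 4, 4 and 4 of 6 markers detected. Their part in the ferroportin values was not tested.

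Neutrophil-like cells held the most Slc40a1 of the named classes, and monocyte-like cells held none that was counted. Neutrophil-like cells had 160 CPM at day 5 (127 to 200), 153 with Lac.z (117 to 198) and 118 at day 14 (81.4 to 166), which overlapped. That was 5.86 to 16.7 times the macrophage level of the same library. Monocyte-like cells had 0 UMIs in 51 cells with Lac.z and 0 in 63 cells at day 14, which allow up to 6.17 and 6.34 CPM.

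Ferroportin was present along the tubule and was far lower in S3-like cells, which are cluster 26 alone. Against S1-like cluster 6, the Slc40a1 ratio was 0.0443 to 0.129 in cluster 26 and 0.332 to 1.13 in cluster 11. S1-like cells held 43.0 CPM at day 5 (37.5 to 49.2), 60.5 with Lac.z (56.5 to 64.6), 53.8 at day 14 (50.1 to 57.7) and 36.9 at day 28 (34.4 to 39.5). S2-like cells held 32.9, 47.2, 37.5 and 26.4 in the same order, again highest with Lac.z and lowest at day 28. S3-like cells held 1.87 with the probiotic, 3.19 at day 14 and 1.39 at day 28, on 1, 11 and 3 UMIs, which was 16.9 to 32.4 times lower than S1-like cells of the same libraries. Thick ascending limb-like cells held 36.9 to 50.7, and distal convoluted tubule-like cells 21.3 to 44.7. The S3-like level was close to that of endothelial-like cells, at 0 to 2.55 CPM.

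**Figure D2:**
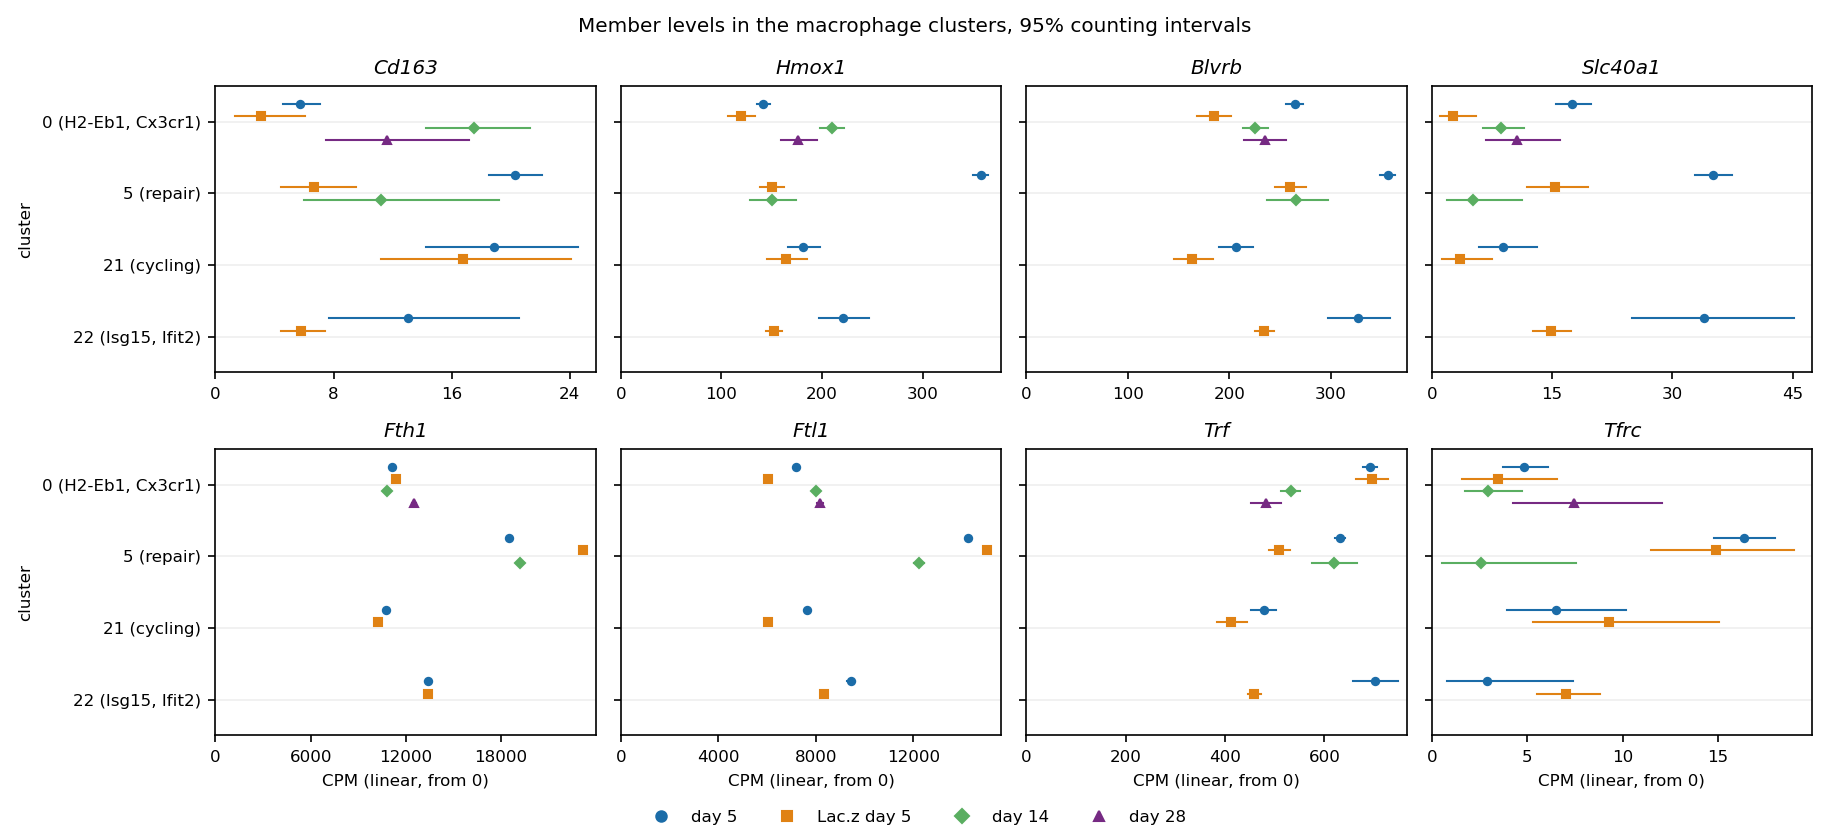
Levels of 8 members (x axis, CPM, linear from 0) in the macrophage clusters (y axis, with their leading genes or state), one marker per library with at least 50 cells, bars for the 95% counting interval. Cluster 5 at day 5 stands apart in Hmox1 at 358 CPM against 150 with Lac.z and at day 14, and day 5 is the highest library for Slc40a1 in each cluster.

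Fth1, the ferritin heavy chain, was among the most counted transcripts, and neutrophil-like cells held the most at day 5 and day 14. The gene (ENSMUSG00000024661) lies at chr19:9980600-9985111. Neutrophil-like cells held 24570 CPM at day 5, 15417 with Lac.z and 32448 at day 14. In the order day 5, Lac.z, day 14 and day 28, macrophage-like cells held 15459, 17066, 12119 and 12929, and proximal tubule-like cells 15188, 13122, 11597 and 13990. Those 2 classes stood close together at day 5 and apart with Lac.z. T or NK cell-like cells held 2028 to 2834 and endothelial-like cells 2137 to 2916, the lowest of the classes plotted. The repair cluster held 18500 at day 5, 23155 with Lac.z and 19203 at day 14, against 11129, 11394 and 10808 in cluster 0, which is 1.66 to 2.03 times as much within a library.

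Ftl1, the light chain, followed the heavy chain in macrophages and parted from it along the tubule. The gene (ENSMUSG00000050708) lies at chr7:45457944-45459886. Cluster 5 held 1.53 to 2.49 times the level of cluster 0, as 14257 against 7183 CPM at day 5, 15031 against 6047 with Lac.z and 12230 against 7997 at day 14. In the proximal tubule S1-like cells held 10067, 9421, 9996 and 10456 CPM in the 4 libraries, and S3-like cells 3800 with the probiotic, 3545 at day 14 and 4196 at day 28. S3-like cells were therefore 2.48 to 2.82 times lower in Ftl1 than S1-like cells, and 1.69 to 1.95 times higher in Fth1, at 21140 with the probiotic, 17469 at day 14 and 21380 at day 28. The Fth1 difference depended on the S1-like cluster. Against cluster 6 alone, S3-like cells were 1.11 to 1.39 times higher in Fth1, under the 1.5 threshold, and 2.90 to 3.24 times lower in Ftl1.

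The number of Fth1 UMIs per Ftl1 UMI put these together, as a ratio that library depth does not move. It was 5.56 in S3-like cells with Lac.z (5.31 to 5.84), 4.93 at day 14 (4.83 to 5.02) and 5.10 at day 28 (4.98 to 5.21). S1-like cells had 1.36, 1.33, 0.996 and 1.05 in the order of the libraries above, and S2-like cells 1.60, 1.48, 1.25 and 1.33. The 3 segments did not overlap in any library that held them all. Cluster 11, which has no segment name, had 2.40 to 2.55 in the 4 libraries. Thick ascending limb-like cells had 2.88 and 3.04 in the day 5 libraries without and with the probiotic, against 1.80 at day 14 and 1.77 at day 28. Their summed injured tubule markers were 18305 and 16142 CPM in the first pair and 4597 and 4065 in the second, from 6, 6, 7 and 7 of 8 markers with Krt20 at 0 in all 4 and Vcam1 at 0 in the first pair. The part of the injury state in that ratio was not tested. Macrophage-like cells lay between 1.36 and 1.62, and neutrophil-like cells between 2.64 and 3.1. Ftl1-ps1, a near-identical copy of Ftl1 that was counted separately, held 0.748% to 1.52% as many UMIs as Ftl1 in macrophage-like cells, and reads of the 2 loci may be split between them.

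**Figure D3:**
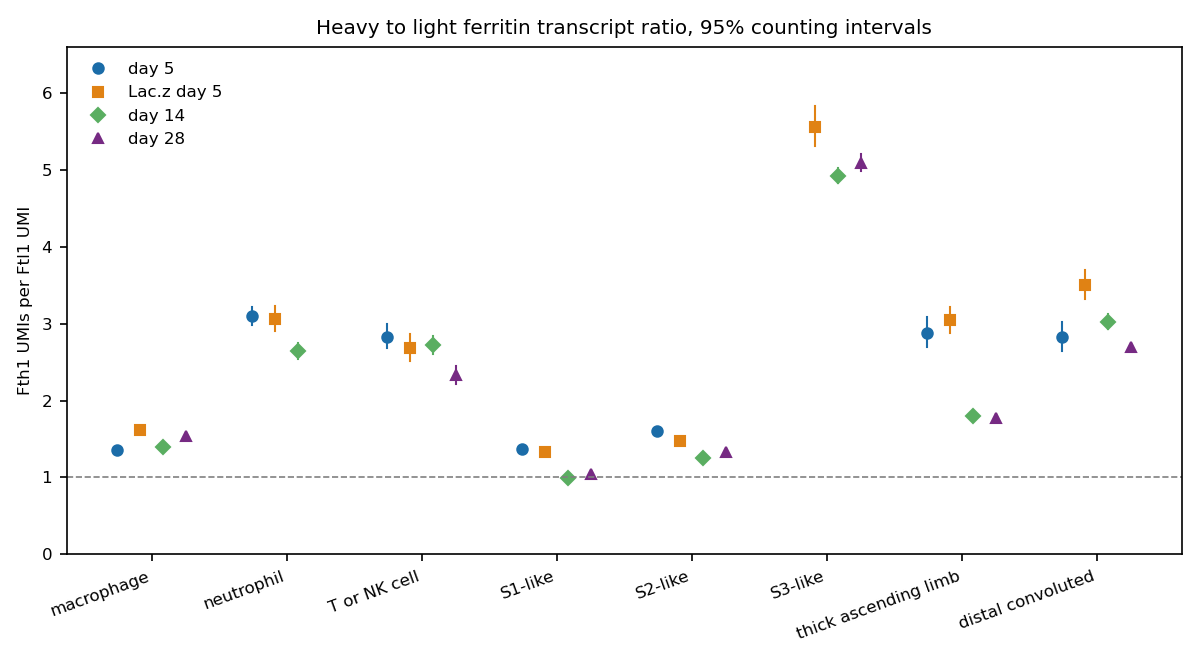
Fth1 UMIs per Ftl1 UMI (y axis, linear from 0) in 3 immune classes and 5 tubule classes (x axis), one marker per library, bars for the 95% counting interval, dashed line at 1. The 3 S3-like values, 4.93 to 5.56, lie above all others shown.

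Slc11a1, the phagosomal metal transporter, differed by up to 1.17 times from its day 5 level in the macrophage-like class and by up to 1.19 times in cluster 0. The gene (ENSMUSG00000026177) lies at chr1:74375014-74386057. Macrophage-like cells held 129 CPM at day 5 (126 to 132), 125 with Lac.z (118 to 133), 138 at day 14 (129 to 146) and 150 at day 28 (135 to 167). Monocyte-like cells held 138 with Lac.z and 140 at day 14, a level that overlapped the macrophages. Cycling cluster 21 was lower than cluster 0, with 70.1 at day 5 (60.8 to 80.4) and 81.0 with Lac.z (68.1 to 95.6). Proximal tubule-like cells held under 1 CPM in every library, from 0.234 to 0.923.

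Trf, transferrin, was counted mainly in macrophages. The gene (ENSMUSG00000032554) lies at chr9:103208876-103230286. Macrophage-like cells held 641 CPM at day 5 (634 to 649), 546 with Lac.z (531 to 562), 541 at day 14 (524 to 559) and 467 at day 28 (440 to 496). Monocyte-like cells held 140 and 125, and neutrophil-like cells 105, 75.3 and 86.0 in the libraries with enough cells. Proximal tubule-like cells held 8.12, 5.43, 5.33 and 3.46, against 11.5, 1.97, 1.71 and 7.64 in T or NK cell-like cells. The 2 classes did not overlap at day 14, where the proximal tubule was the higher one. In the same proximal tubule-like cells the 10 macrophage markers, all detected, summed to 506, 402, 390 and 192 CPM, in the same order as Trf, and their part was not tested. S1-like cells held 8.06 to 12.1 and S2-like cells 0.481 to 2.65, so the low tubule level was not even along the segments. S3-like cells were 0.115 to 2.25 times S1-like cells, lower in 2 of 3 libraries and higher in 1.

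Tfrc, the transferrin receptor, was highest in the distal convoluted tubule in 3 libraries and in the thick ascending limb at day 5. The gene (ENSMUSG00000022797) lies at chr16:32608896-32632794. Distal convoluted tubule-like cells held 63.9 CPM at day 5 (43.1 to 91.3), 128 with Lac.z (103 to 158), 143 at day 14 (126 to 161) and 202 at day 28 (188 to 216). Thick ascending limb-like cells held 77.0, 46.2, 91.6 and 71.1, and proximal tubule-like cells 26.3, 24.8, 36.8 and 39.8. The distal convoluted tubule was 2.43 to 5.17 times the proximal tubule in every library. The day 5 value rests on 51 cells, in which the injured tubule markers summed to 12133 CPM against 4136, 3411 and 1621 in the other libraries, and the distal convoluted tubule markers to 5348 against 11100, 9854 and 11980. Krt20 and Vcam1 were at 0 there, and the part of cell state or mixed cells in the Tfrc difference was not tested.

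Macrophages held little Tfrc, and the repair cluster gave 412 of their 501 UMIs at day 5. Macrophage-like cells had 11.7 CPM at day 5 (10.7 to 12.8), 10.3 with Lac.z (8.32 to 12.7), 2.98 at day 14 (1.85 to 4.56) and 6.75 at day 28 (3.86 to 10.97). Cluster 5 had 16.3 at day 5 (14.8 to 18), 14.9 with Lac.z (11.5 to 19.0) and 2.59 at day 14 on 3 UMIs. Cluster 0 had 4.81 (3.75 to 6.08), 3.45, 2.95 and 7.43 (4.25 to 12.1), which overlapped between day 5 and day 28. T or NK cell-like cells held 8.29 to 13.8, which was 0.799 to 2.78 times the macrophage level, and the intervals did not overlap at day 14.

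**Figure D4:**
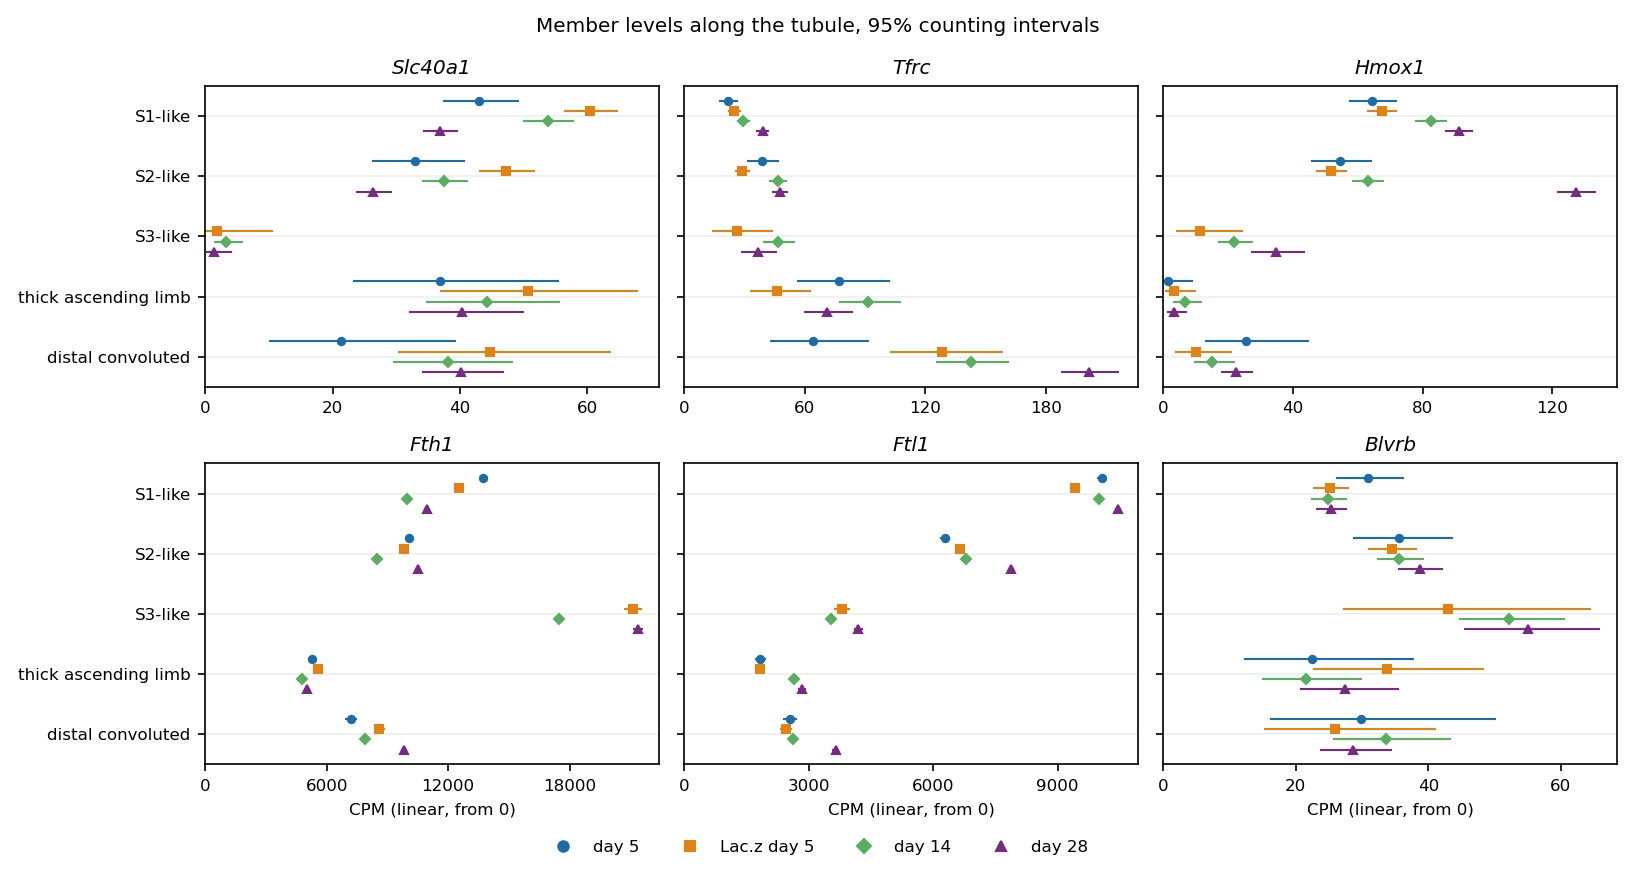
Levels of 6 members (x axis, CPM, linear from 0) in S1-like, S2-like and S3-like proximal tubule, thick ascending limb-like and distal convoluted tubule-like cells (y axis), one marker per library with at least 50 cells, bars for the 95% counting interval. S3-like cells have the lowest Slc40a1, at 1.39 to 3.19 CPM, and the highest Fth1, and Tfrc reaches 202 CPM in the distal convoluted tubule at day 28.

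The first comparison asked what differed at day 5 in mice given Lac.z. In macrophage-like cells 3 of the 10 members were called, meaning a CPM ratio of at least 1.5 either way, computed with 1 UMI added to each sum, among genes with at least 50 UMIs in the pair. All 3 were lower with Lac.z. Over all 11096 genes measured, 12.0% were called in either direction and 2.48% were called lower. Slc40a1 was 2.97 times lower (ratio 0.337, 0.265 to 0.422), Cd163 2.00 times lower (0.499, 0.381 to 0.643) and Hmox1 1.89 times lower (0.528, 0.498 to 0.560). The other 7 had ratios from 0.694 for Blvrb to 1.10 for Fth1. The median log2 ratio was -0.20 over the members and 0.08 over all genes measured.

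The same genes were then read within single clusters. In repair cluster 5, 3 of 10 members were called, all lower: Cd163 at 0.328 (0.217 to 0.477), Hmox1 at 0.419 (0.387 to 0.454) and Slc40a1 at 0.438 (0.336 to 0.561), where 9.84% of all genes were called. In cluster 0, 2 of 9 were called, Cd163 and Slc40a1, where 11.6% of all genes were. There the Slc40a1 ratio was 0.153 (0.0609 to 0.320), the Cd163 interval of 0.225 to 1.11 included 1, and Hmox1 was 0.845 (0.748 to 0.952). With cluster 22 added to the class the same number, 3, was called lower, against 11.6% of all genes. Whether the clusters differ from each other was not tested. With cells weighted equally the log2 ratio of Cd163 in the class was -0.33, no longer called, and with each library clustered by itself 5 members were called, with Tfrc lower (log2 -0.66) and Hp higher (1.12) beside the 3.

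In the proximal tubule-like class 1 of 7 measured members was called with Lac.z, against 9.01% of all genes. That was Trf at 0.669 (0.514 to 0.875), at the low level described above, a ratio that reaches 1.5-fold only with the added UMI and a call lost at clustering resolution 2 (log2 -0.56). Slc40a1 was 1.41 times higher (1.26 to 1.58), under the 1.5 threshold, and the other 5 had ratios from 0.845 for Blvrb to 0.944 for Tfrc. Injured tubule-like cells had 3 of 6 called, against 30.1% of all genes: Hmox1 at 2.06 (1.63 to 2.62) and Slc40a1 at 1.79 (1.27 to 2.55) were higher and Tfrc at 0.650 (0.470 to 0.899) was lower. These cells were 86 at day 5 and 166 with Lac.z, and their summed proximal tubule markers were 1516 and 5842 CPM, with all 11 detected in both. Distal convoluted tubule-like cells had 1 of 3 called, Tfrc at 2.01 (1.32 to 3.15), against 18.3% of all genes. Thick ascending limb-like cells had 1 of 4 called, Tfrc at 0.600 (0.386 to 0.930), against 12.0%.

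Neutrophil-like cells had 5 of 7 members called with Lac.z, 1 higher and 4 lower, where 21.6% of 2249 genes were called. Hp was 1.93 times higher (1.74 to 2.14). Hmox1 had a ratio of 0.496 (0.317 to 0.760), Slc11a1 0.539 (0.345 to 0.825), Fth1 0.627 (0.608 to 0.647) and Ftl1 0.635 (0.601 to 0.670). Slc40a1 was close to equal, at 0.956 (0.671 to 1.36). The 8 neutrophil markers summed to 72495 CPM at day 5 and 158326 with Lac.z, and the 10 macrophage markers to 1899 with all detected and 496 with Ms4a7 at 0. At day 5, 1 cell gave 37.5% of the Hmox1 UMIs. The part of these marker levels in the member ratios was not tested.

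**Figure D5:**
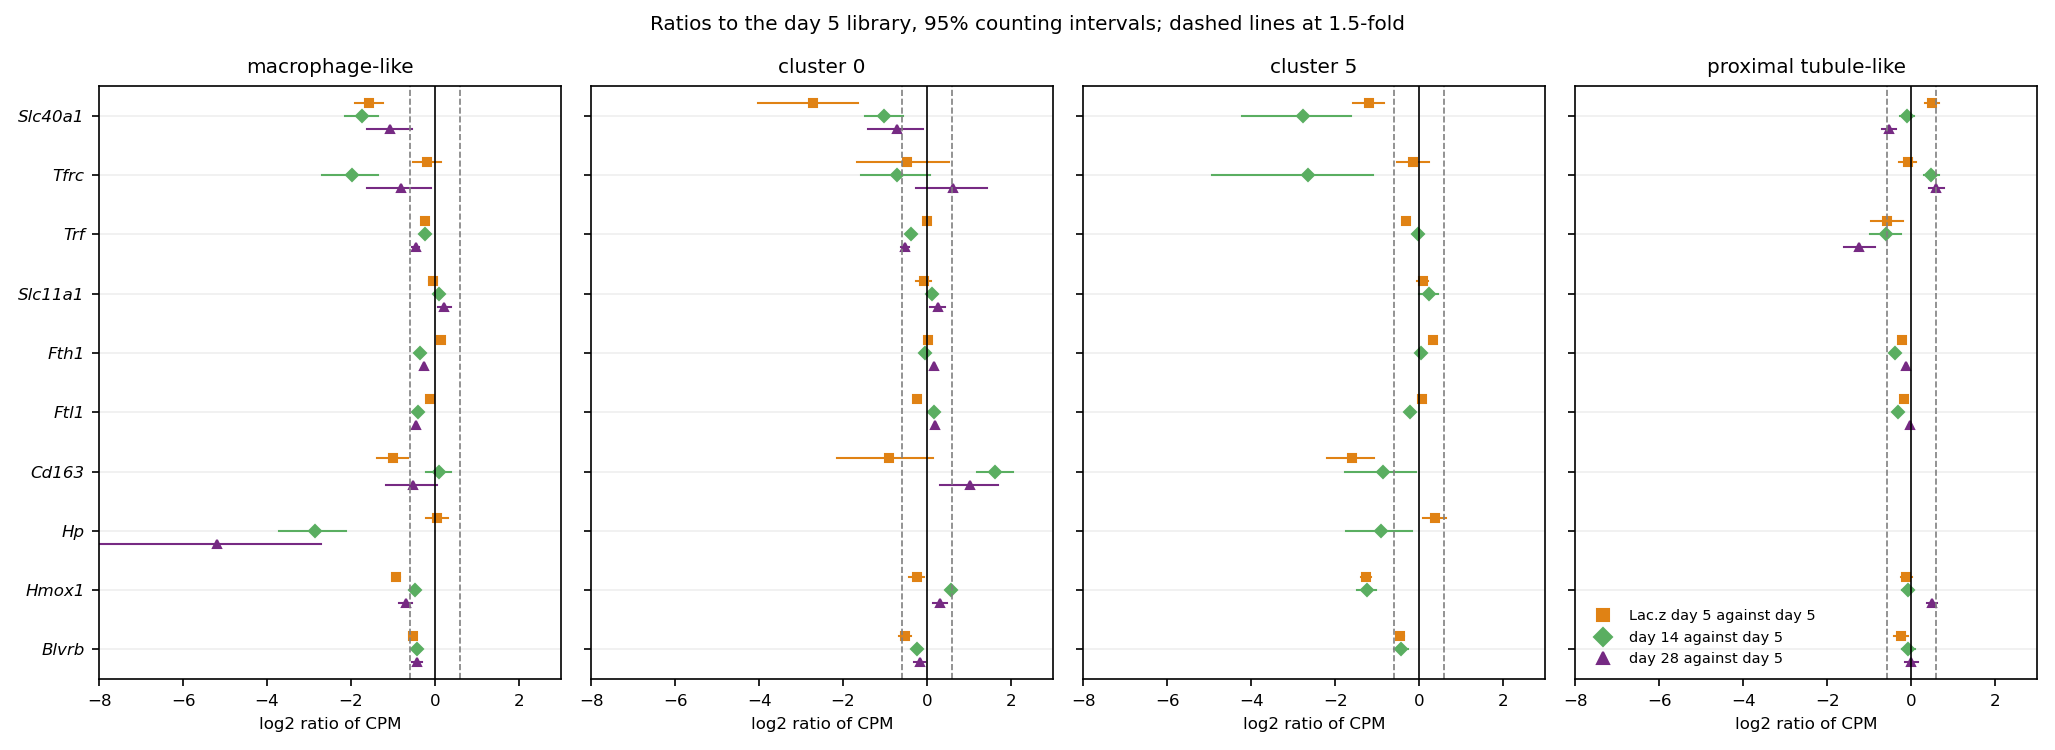
Log2 ratio of CPM to the day 5 library (x axis) for each measured member (y axis) in the macrophage-like class, its clusters 0 and 5 and the proximal tubule-like class, one marker per comparison, bars for the 95% counting interval and dashed lines at the 1.5-fold threshold. The lower end of the day 28 interval of Hp is cut at the left edge, and Slc40a1 lies left of the dashed line in all 8 macrophage comparisons shown.

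The second question was how the members stood later after injury. At day 14, 3 of 10 members were called in macrophage-like cells, all lower, where 23.6% of 11067 genes were called and 12.7% were lower. The median log2 ratio was -0.41 over the members and -0.08 over all genes. Slc40a1 was 3.32 times lower (ratio 0.301, 0.227 to 0.393), Tfrc 3.94 times lower (0.254, 0.156 to 0.393) and Hp 7.26 times lower (0.138, 0.0766 to 0.229). Adding cluster 22 left 3 called lower, against 23.5% of all genes, and with each library clustered by itself 5 were called, all lower. In cluster 0 alone 3 of 9 were called, against 17.1%: Cd163 was higher at 3.07 (2.27 to 4.16), Slc40a1 lower at 0.495 (0.358 to 0.672) and Tfrc lower at 0.613 with an interval of 0.338 to 1.05. In cluster 5, with 77 cells at day 14, 5 of 10 were called, all lower, against 27.9%: Slc40a1 at 0.148, Tfrc at 0.159, Hmox1 at 0.420, Hp at 0.538 and Cd163 at 0.554.

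At day 28, 4 of 10 members were called in macrophage-like cells, all lower, where 30.0% of 10910 genes were called and 13.5% were lower. The median log2 ratio was -0.46 over the members and -0.0021 over all genes. Slc40a1 had a ratio of 0.479 (0.324 to 0.683), Tfrc 0.575 (0.326 to 0.943), Hmox1 0.616 (0.556 to 0.681) and Hp 0.0273 (0.000690 to 0.153). With cluster 22 added 5 were called lower, Cd163 being the other one, against 29.6%. With each library clustered by itself 7 were called and Hp was higher (log2 2.31), and with cells weighted equally Hmox1 was not called (log2 -0.25). Cluster 0, which held 95.5% of the class at day 28, gave another picture, with 3 of 9 called against 21.3%. There Cd163 was higher at 2.03 (1.25 to 3.22), Tfrc higher at 1.54 with an interval of 0.837 to 2.69, and Slc40a1 lower at 0.609 (0.379 to 0.935), while Hmox1 was 1.24 (1.11 to 1.39). Slc40a1 was thus lower in both the class and cluster 0, while the lower Hmox1 and Tfrc of the class were not seen in cluster 0, where Hp had too few UMIs to be measured.

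The tubule was read in the same way. In proximal tubule-like cells 1 of 7 members was called at day 14 against 15.3% of all genes, Trf at 0.657 (0.511 to 0.850), a call lost with cells weighted equally (log2 -0.46) or a mitochondrial limit of 25% (-0.57). At day 28, 2 of 7 were called against 14.0%, Tfrc at 1.51 (1.34 to 1.72) and Trf at 0.426 (0.331 to 0.553). The Tfrc call was lost under 4 alternatives, with log2 ratios from 0.46 to 0.58. S2-like cells at day 28 had 1 of 6 called against 20.2%, Hmox1 at 2.34 (1.97 to 2.79). Tfrc was 1.79 times higher in S1-like cells at day 28 (1.46 to 2.20) and 1.23 times in S2-like cells (0.998 to 1.53).

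In distal convoluted tubule-like cells 2 of 5 members were called higher at day 14, against 22.4% of all genes, and 2 of 6 at day 28, against 33.0%. Both times they were Tfrc, at 2.24 (1.53 to 3.38) and 3.15 (2.19 to 4.71), and Slc40a1, at 1.79 (0.915 to 3.89) and 1.88 (0.999 to 4.00), whose intervals include 1. Thick ascending limb-like cells had 0 of 5 called at day 14, against 20.4%, and 1 of 5 at day 28, against 24.3%, which was Ftl1 at 1.55 (1.45 to 1.65). Injured tubule-like cells had 2 of 6 called at day 14 against 29.1%, Slc40a1 higher at 1.89 (1.35 to 2.69) and Tfrc lower at 0.625 (0.451 to 0.865). At day 28 they had 3 of 6 called against 29.2%, with Blvrb at 1.86 (1.15 to 2.98), Hmox1 at 0.538 (0.322 to 0.862) and Tfrc at 0.372 (0.190 to 0.673). Neutrophil-like cells at day 14 had 2 of 7 called against 24.2%, Ftl1 at 1.55 (1.48 to 1.62) and Hp at 0.657 (0.563 to 0.765).

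Other iron and heme genes were taken from a list of 51, of iron sensing, transport, storage and heme synthesis and breakdown. In macrophage-like cells with Lac.z, 4 of 37 measured were called higher and 3 lower, where 12.0% of all genes were called, and the median log2 ratio was -0.06 against 0.08 over all genes. Lrp2, an endocytic receptor of the tubule, and Abcg2, an exporter of heme and drugs, had the highest ratios, 7.51 (5.97 to 9.48) and 1.89 (1.53 to 2.32). The metalloreductase Steap4, at 0.293 (0.124 to 0.594), and the siderophore binder Lcn2, at 0.327 (0.103 to 0.797), had the lowest. Spic, a transcription factor of heme-recycling macrophages, was chosen after its value was seen: it was lower at 0.410 (0.253 to 0.634) with Lac.z, and higher at 1.98 (1.53 to 2.54) at day 14 and 3.08 (2.19 to 4.24) at day 28.

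At day 14, 9 of 38 list genes were called higher and 6 lower in macrophage-like cells, where 23.6% of all genes were called, and the median was -0.10 against -0.08. Cubn, at 19.1 (10.0 to 38.9), and Lrp2, at 9.86 (7.86 to 12.4), had the highest ratios, and Steap4, at 0.362 (0.153 to 0.734), and the heme-hemopexin receptor Lrp1, at 0.478 (0.444 to 0.515), the lowest. At day 28, 6 of 37 were higher and 8 lower, against 30.0% of all genes called, with a median of -0.25. Named by the same rule were Lrp2 at 25.4 (20.1 to 32.2), Abcg2 at 4.16 (3.21 to 5.35), Slc39a8, a metal importer, at 0.264 (0.0539 to 0.781) and Steap4 on 0 UMIs against 134. Lrp2 and Cubn are endocytic receptors of the proximal tubule brush border. The 11 proximal tubule markers, all detected in macrophage-like cells of every library, summed to 68.6 CPM at day 5, 373 with the probiotic, 766 at day 14 and 1932 at day 28, and their part in these list genes was not tested.

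The list was read the same way in proximal tubule-like cells, where 9.01%, 15.3% and 14.0% of all genes were called in the Lac.z, day 14 and day 28 comparisons. With Lac.z 4 of 36 were higher and 0 lower, with the heme transporter Flvcr2 at 2.29 (1.74 to 3.04) and the metal transporter Slc39a8 at 2.03 (1.52 to 2.74) highest. At day 14, 4 of 40 were higher and 1 lower: Slc39a8 at 2.57 (1.95 to 3.44) and the heme and folate carrier Slc46a1 at 2.12 (1.61 to 2.85) were highest, and Lcn2 at 0.381 (0.218 to 0.678) was the one lower. At day 28, 2 of 39 were higher and 2 lower. Slc46a1, at 1.71 (1.30 to 2.29), and Slc39a8, at 1.56 (1.18 to 2.09), were higher, and the ferroxidase Cp, at 0.354 (0.273 to 0.463), and Steap2, at 0.613 (0.576 to 0.653), were lower.

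The genes whose levels ran most like each member were taken over 45 sums of a class and a library, among 12084 genes, with Pearson's r of log2(CPM + 10) as a description. These sums share libraries and depth, and cell type sets most of each value. Cd163 ran with Ccl8 (r = 0.898), Ms4a14 and Slco2b1, and Trf with Tgfbi (r = 0.946), P2ry6 and Cd68. Hmox1 ran with Ftl1 (r = 0.866), Sirpa and Ctsa, and the ferritin chains Fth1 and Ftl1 ran with each other (r = 0.890). Slc11a1 ran with Lst1 (r = 0.970), Slc15a3 and Igsf6, and Hp with Mcemp1 (r = 0.982), Slc16a3 and Mmp8. Slc40a1 ran with Acsl1 (r = 0.832), Hnmt and Slc27a4, Tfrc with Galt (r = 0.860), Etfrf1 and Echdc3, and Blvrb with B3gnt8 (r = 0.790), Zeb2os and Neurl2.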

How the data were processed

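Kidney cells were profiled by droplet single-cell RNA sequencing, and the authors deposited UMI counts per gene and barcode as whole numbers, aligned to mm10 per the submitters' processing notes. No label names the aligner. Software 3.0.2 made the day 5 tables and 3.1.0 the later ones, per the file headers, so version and time cannot be told apart. The barcodes used had 200 or more genes and a mitochondrial share up to 50%. The barcodes with the highest Scrublet scores were removed as doublets (460 to 1762 per library), leaving 6608, 6583, 8714 and 12376, and barcodes with at least 20% haemoglobin UMIs (5 in each day 5 library) were left out. Cells were clustered jointly with scanpy 1.11.5 in Python 3.11.15 (2000 variable genes without the members and Ftl1-ps1, 30 components, 20 neighbours, Leiden resolution 1). Clusters were named from marker lists, and these clusters serve as states and segments. UMIs were summed per class and library; intervals are exact Poisson for levels and exact conditional binomial for ratios. A gene was called at a log2 ratio, with 1 UMI added, past 1.5-fold. The calls and intervals were run on simulated sums of independent Poisson counts. That is the model the intervals assume, so the run could not check for UMIs concentrated in single cells or for differences between animals. Named genes are all members and, from the pathway list, the 2 highest and 2 lowest called in each comparison, plus the 3 genes most like each member, with Spic added after its values were seen. The members and lists were chosen with earlier results of these data known.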

Additional observations from a re-analysis of the deposited data

Results flagged for a closer look

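Hmox1, Slc40a1 and Tfrc were called in opposite directions in different cell classes under the same comparison, and the difference between the classes was not tested. With Lac.z, Hmox1 was lower in macrophage-like (ratio 0.528) and neutrophil-like cells (0.496) and higher in injured tubule-like cells (2.06). Slc40a1 was lower in macrophage-like cells in all 3 comparisons, where the ratios were 0.337 (Lac.z), 0.301 (day 14) and 0.479 (day 28). It was higher in injured tubule-like cells with Lac.z (1.79) and at day 14 (1.89), where 30.1% and 29.1% of all genes were called. Injured tubule-like cells with Lac.z also held more summed proximal tubule markers than those without, whose part was not tested. Slc40a1 was also called higher in distal convoluted tubule-like cells at day 14 (1.79) and day 28 (1.88), where 22.4% and 33.0% of all genes were called. The counting intervals of those last ratios included an equal level.

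Tfrc was higher in distal convoluted tubule-like cells in all 3 comparisons, where the ratios were 2.01 (Lac.z), 2.24 (day 14) and 3.15 (day 28). It was lower in injured tubule-like cells, at 0.650, 0.625 and 0.372 in the same order. It was also lower with Lac.z in thick ascending limb-like cells (0.600), and lower in macrophage-like cells at day 14 (0.254) and day 28 (0.575), while proximal tubule-like cells at day 28 were higher (1.51). All these ratios have the same day 5 library as their base, in which distal convoluted tubule-like and thick ascending limb-like cells numbered 51 and 50.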

How the results depend on the processing

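Of 66 counts of called members under alternatives, 52 stayed within 1.5 times the value reported. Of 561 member ratios 412 stayed inside their counting interval, 145 moved further and 4, all of called members, reversed. Ratios that were not called also changed sign under some alternatives and are not among the 4. Blvrb in proximal tubule-like cells at day 28 kept its direction under 4 of 11. The log2 ratio of Cd163 in macrophage-like cells at day 28 went from -0.47 to 1.06 in cluster 0 alone. Slc40a1 stayed called lower in macrophage-like cells under all 11 alternatives in each comparison, with log2 ratios from -2.52 to -1.16 (Lac.z), -2.28 to -0.99 at day 14 and -1.92 to -0.66 at day 28. Cd163 with Lac.z lost its call when cells were weighted equally (-0.33), and Hmox1 in cluster 0 alone (-0.24). With each library clustered separately, 5, 5 and 7 members were called in macrophage-like cells in the Lac.z, day 14 and day 28 comparisons, and Hp at day 28 reversed to 2.31; the cause was not tested. In cluster 0 alone, Hmox1 and Tfrc at day 28 reversed to 0.32 and 0.69, while the 0.59 of Hp there comes only from the added UMI, since its CPM ratio was 0.844 on 1 UMI against 8. In proximal tubule-like cells the count of 1 with Lac.z became 3 with no minimum count, which tests more genes, and 0 at resolution 2 and in cluster 2 alone. The count of 1 at day 14 became 4 with no minimum and 0 with cells weighted equally, with a mitochondrial limit of 25% and in cluster 2 alone. The count of 2 at day 28 became 5 with no minimum, and 1 with median scaling, with haemoglobin and mitochondrial UMIs left out of the total and with Havcr1 clusters added, Tfrc being lost. Median scaling moved the pathway count in proximal tubule-like cells with Lac.z from 4 to 2. Thinning to 2000 UMIs moved 61 of 80 shares of cells. Keeping haemoglobin-rich barcodes, adding cluster 22 or the Havcr1 clusters and using 1 cluster were chosen after seeing the data. No paired analysis was possible because each group had 1 library. Depth limits members under about 50 UMIs: Cd163 and Hp in tubule cells, and Tfrc in macrophages at days 14 and 28. In macrophage-like cells it also limits Hp at day 14 (15 UMIs) and day 28 (1), Cd163 at day 28 (25), and Slc40a1 at day 28. Within clusters it limits Slc40a1 in cluster 0 with Lac.z and at day 28, and in cluster 5 at day 14.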
